A study of Naumovozyma castellii with 14 samples.

Results

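The 6 non-coding transcripts described here stood at the ends of the cycloheximide response of the budding yeast Naumovozyma castellii: CUT0315, XUT0250 and XUT0080 were at the top, and CUT0750, XUT0165 and CUT0214 were at the bottom. They are 6 of 2390 CUTs, XUTs and SUTs, and 6 of 8343 distinct features measured. They were picked as transcripts that rose most or fell after cycloheximide, and the rule names no genotype. Ranking by the log2 fold change in treated against untreated wild-type cells puts these 6 in the top 3 and bottom 3 places of the tested non-coding features, so that comparison is taken as the one that chose them and was not tested. The tests below use cells without Upf1 and the mRNAs next to or opposite each transcript. If treated upf1 libraries also entered the choice, the p-values of the 6 transcripts in upf1 CHX against upf1 are not independent of it.

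Total RNA depleted of ribosomal RNA was sequenced with strand information from 14 libraries in 5 groups, all from haploid strains with the genotype MATalpha ura3-1 ho grown to mid-log phase in YPD at 25 °C. The WT group had 4 libraries of strain YAM2478, and the upf1 group had 4 libraries of strain YAM2890, which carries upf1::kanMX6. The WT CHX and upf1 CHX groups had 2 libraries each of these same strains after 15 min in 100 µg/mL cycloheximide, and the dcr1 upf1 group had 2 untreated libraries of strain YAM2943, which carries dcr1 and upf1::kanMX6. Each genotype was thus 1 strain. The labels do not say whether the replicates were separate cultures, so p-values measure the spread between these libraries only.

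Cycloheximide stops translation elongation within minutes, and with it the decay of many RNAs that are destroyed as they are translated. Cryptic unstable transcripts (CUTs) are defined in Saccharomyces cerevisiae by their removal by the nuclear exosome, and Xrn1-sensitive unstable transcripts (XUTs) by their removal in the cytoplasm by the 5′ exonuclease Xrn1. Stable unannotated transcripts (SUTs) are a further class. Upf1 is an RNA helicase without which nonsense-mediated decay (NMD) stops; NMD removes RNAs whose translation ends too early, and cytoplasmic non-coding RNAs bound by ribosomes can be among its substrates. Dcr1 is the Dicer nuclease of the RNA interference pathway, which this yeast has kept.

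The 6 transcripts lie at 4 loci, because 4 of them form 2 separate pairs of overlapping annotations. CUT0315 (chromosome 1, 2908995 to 2909525, plus strand, 531 nt) lies wholly inside XUT0250 (chromosome 1, 2908991 to 2909606, plus strand, 616 nt). Their recovered reads were identical in 13 of 14 libraries and differed by 1 read in the other. XUT0165 (chromosome 1, 1796696 to 1797102, plus strand, 407 nt) and CUT0214 (chromosome 1, 1796705 to 1797573, plus strand, 869 nt) share 398 bases, and CUT0214 held between 0 and 9 reads more than XUT0165. The difference was at most 8.33% of the reads of XUT0165, and the density of CUT0214 is lower because it is longer. The members of each pair were not independent measurements. XUT0080 (chromosome 1, 862156 to 862445, minus strand, 290 nt) and CUT0750 (chromosome 4, 655576 to 655886, minus strand, 311 nt) stand alone. Coordinates are those of the deposited table, whose genome build no label or header states.

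The loci differ in how they sit among protein-coding genes. CUT0750 lies wholly within USE1 on the opposite strand. The annotation of CUT0214 overlaps the end of CHM7 on the opposite strand by 221 bases, while XUT0165 stops 250 bases short of CHM7. CUT0214 held at most 9 reads more than XUT0165 in any library, so few reads came from its part beyond XUT0165. XUT0250 ends 3 bases before the convergent gene ERV2, and it starts 291 bases after VMA13 on its own strand. XUT0080 lies in a gap between genes, 446 bases from the divergent gene NCAS_0A04270. The nearest gene in front of XUT0165 is RTT101, which ends 272 bases upstream on the same strand. No mRNA as annotated overlaps CUT0315, XUT0250, XUT0080 or XUT0165 on the opposite strand. Whether the annotated spans of the mRNAs include their untranslated ends was not checked, so the true gaps may be shorter.

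**Figure D1:**
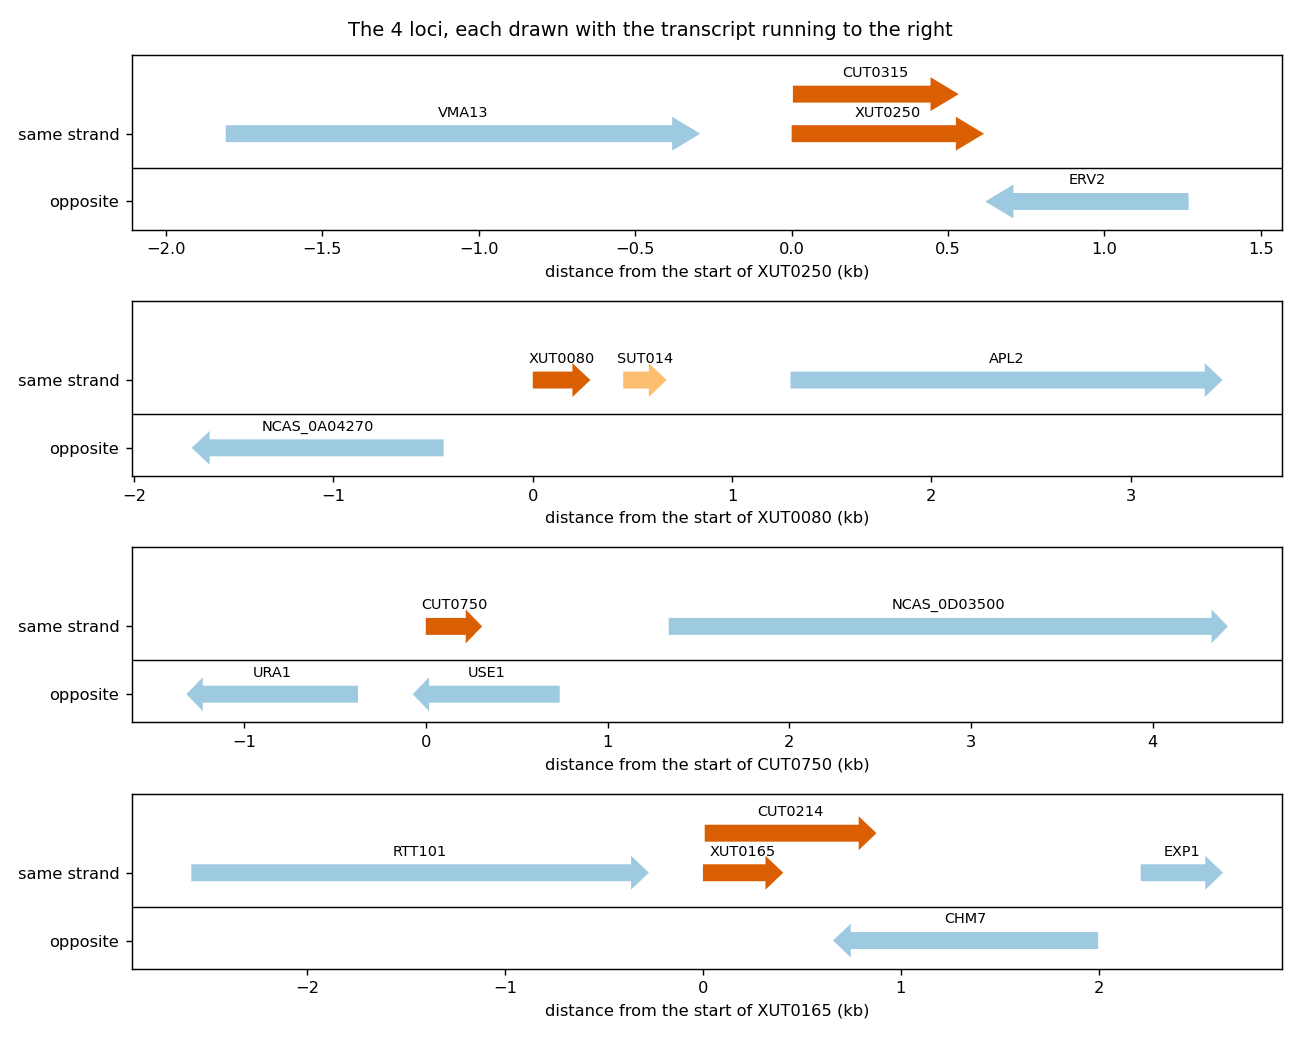
Map of the 4 loci, with the distance from the start of XUT0250, XUT0080, CUT0750 or XUT0165 in kb on the x axis and the strand relative to that transcript on the y axis. Orange arrows are the 6 transcripts, blue arrows the neighbouring mRNAs and the light orange arrow SUT014. By annotation, CUT0750 lies inside USE1, CUT0214 reaches 221 bases into CHM7, and the other transcripts lie between genes.

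Recovered reads per library ranged from 7895089 to 22437334, and they were at least 13509980 in the treated and dcr1 upf1 libraries and at most 11172687 in WT. NAM7, the gene for Upf1, held 1074 to 1601 reads in WT, 2335 to 2584 in WT CHX and 0 in all libraries of the 3 groups without Upf1. The dcr1 deletion was not checked here. In untreated libraries the α-specific genes STE3 and SAG1 had densities of 0.915 to 3.40, and the a-specific genes STE2, STE6, BAR1 and AGA2 had 0 to 0.347. After cycloheximide the α-specific genes stood at 2.84 to 4.63 and the a-specific genes at 0.196 to 4.60. AGA2 averaged 4.51 in WT CHX, above STE3 (2.92) and SAG1 (2.96), so the 2 sets did not separate there. MF(ALPHA)1, MF(ALPHA)2, MFA1 and MFA2 were not found by name. Densities are reads per nucleotide scaled, as far as the values show, to the snoRNAs. A rise of other RNAs and a fall of the snoRNAs thus cannot be told apart. On this scale the median log2 fold change of all tested features was 1.34 in WT CHX against WT and 0.83 in upf1 CHX against upf1, and every change below is read against that shift.

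In treated against untreated wild-type cells, the 3 at the top had log2 fold changes of 4.55 (CUT0315), 4.53 (XUT0250) and 4.28 (XUT0080), on the log2(density + 0.02) scale used throughout. The 3 at the bottom had −1.47 (XUT0165), −1.35 (CUT0214) and −1.17 (CUT0750). Just outside on the rising side stood XUT0182 (4.02), CUT0886 (3.61) and SUT014 (3.44), of 1124 non-coding features that were called, did not overlap between the groups and reached the median of their class. Just outside on the falling side stood CUT0872 (−1.13), CUT0479 (−0.86) and CUT1227 (−0.81), of 6 that met these criteria. Limma called 91.1% of tested CUTs and XUTs higher and 0.432% lower in WT CHX against WT, and nothing is read from those shares because the choice is taken to rest on the same comparison. The median of tested CUTs and XUTs was 1.38.

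Without Upf1 all 6 transcripts moved the same way as in WT. In upf1 CHX against upf1 limma called 3 of the 6 higher and the other 3 lower, at an adjusted p under 0.05 over 7518 tested features. XUT0080 passed the filter on mean density only through its treated libraries, as described below, so its higher call is description only. The background differs sharply between the directions, since 74.8% of tested CUTs and XUTs were called higher and 0.37% lower. A higher call is thus common in this comparison, and the size of the change is what sets CUT0315, XUT0250 and XUT0080 apart: they ranked 1, 2 and 4 from the top among 1737 tested CUTs, XUTs and SUTs. XUT0165, CUT0214 and CUT0750 ranked 1, 2 and 3 from the bottom. They were 3 of 7 non-coding features called lower, the others being SUT037, CUT0479, CUT1203 and CUT1227, with log2 fold changes between −0.84 and −0.47. SUT037 and CUT1203 are named only for this call, after their values were seen. XUT0182, just outside the choice in WT, took rank 3 from the top here (4.18), while CUT0872 was not called (−0.33, limma adjusted p = 0.151).

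**Figure D2:**
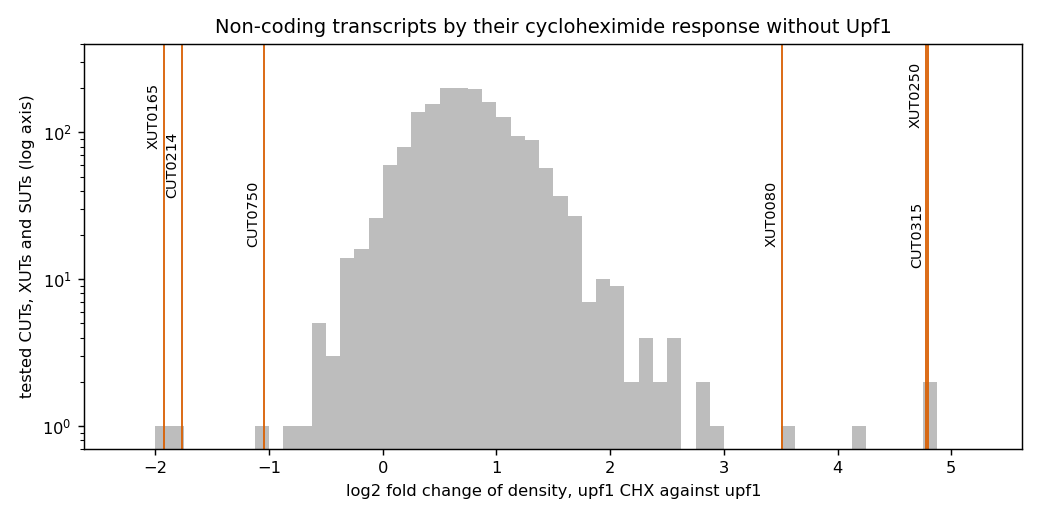
Number of tested CUTs, XUTs and SUTs (y axis, log scale) by log2 fold change of density in upf1 CHX against upf1 (x axis), with orange lines at the 6 transcripts. Most features lie near the CUT and XUT median of 0.75, while CUT0315 and XUT0250 lie near 4.8, XUT0080 at 3.51, and the 3 others between −1.92 and −1.04.

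CUT0315 and XUT0250 were already among the more abundant of their classes before treatment and stood more than an order of magnitude higher after it. CUT0315 had densities of 0.228, 0.256, 0.280 and 0.265 in WT, and of 0.162, 0.164, 0.204 and 0.263 in upf1. After cycloheximide it stood at 6.30 and 6.61 in WT CHX and at 6.34 and 5.56 in upf1 CHX. All 4 treated libraries were far above every untreated one, and the treated WT and upf1 libraries overlapped each other. The mean densities were 25.1 times higher in WT CHX than in WT and 30.0 times higher in upf1 CHX than in upf1. In upf1 the log2 fold change was 4.79 (SE 0.16) for CUT0315 and 4.77 (SE 0.16) for XUT0250, each with a limma adjusted p of 1.48e-12. XUT0250 gave the same picture from the same reads, with 0.140 to 0.227 in upf1 and 5.47 and 4.79 in upf1 CHX. When libraries were scaled to the mRNAs in place of the snoRNAs, the log2 fold change of CUT0315 in upf1 was 3.84.

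Among CUTs, CUT0315 went from rank 11 of 1279 by mean density in WT to rank 1 in WT CHX, and from rank 56 in upf1 to rank 2 in upf1 CHX. Its share of all reads in CUTs was 0.491% ± 0.070 in WT and 0.188% ± 0.033 in upf1 (SD, n = 4 each). In treated cells the share was 3.92% in WT CHX and 3.09% ± 0.068 in upf1 CHX (SD, n = 2). The share does not depend on how libraries were scaled.

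**Figure D3:**
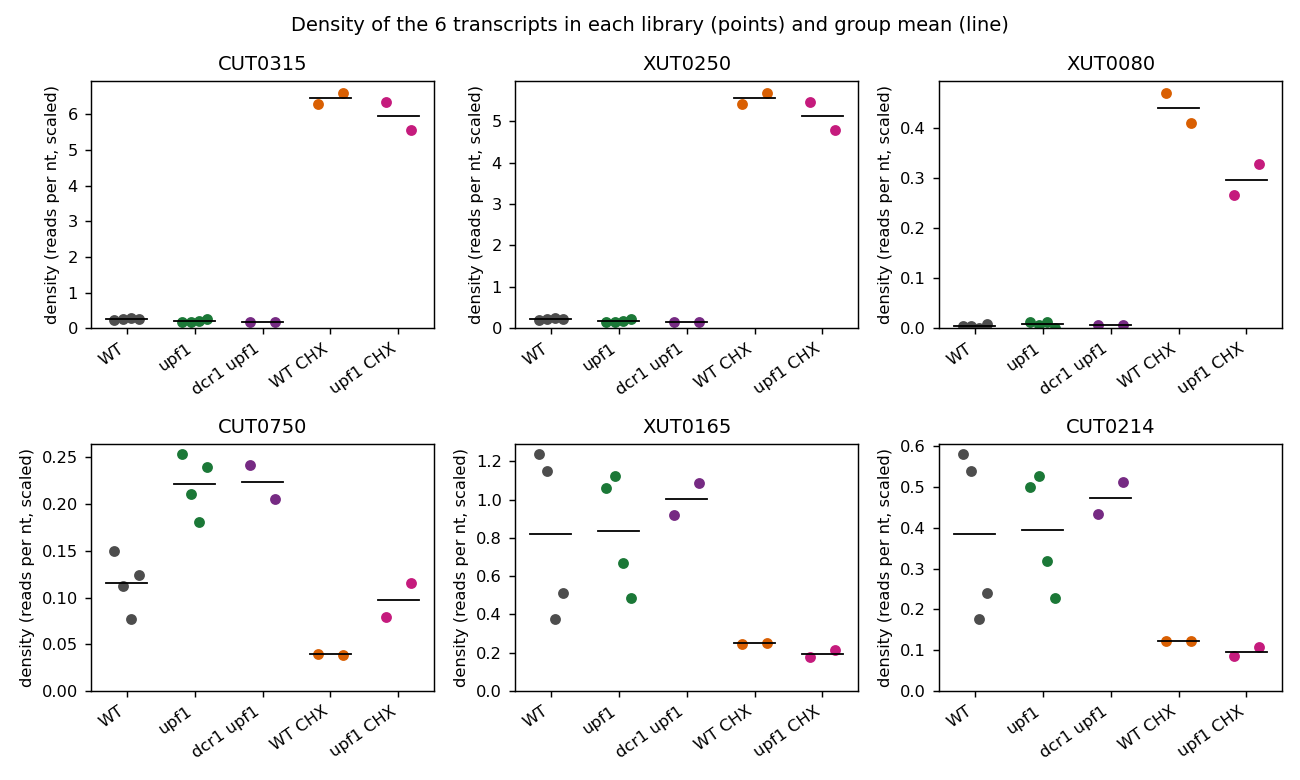
Density (y axis, reads per nucleotide, scaled) of each of the 6 transcripts in every library, by group (x axis), with points for libraries and a line for the group mean. Treated libraries stand far above the untreated ones for CUT0315, XUT0250 and XUT0080 and below them for the others within each genotype, and XUT0165 and CUT0214 split into a high and a low pair of libraries in WT and in upf1.

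The genes beside this locus moved far less. VMA13 encodes a regulatory subunit of the vacuolar ATPase in S. cerevisiae, and ERV2 a sulfhydryl oxidase of the endoplasmic reticulum (ER). VMA13 had densities of 1.15, 1.15, 1.17 and 1.21 in upf1 and of 2.04 and 1.88 in upf1 CHX, a log2 fold change of 0.73 (SE 0.12, limma adjusted p = 4.81e-05), against −0.23 when scaled to the mRNAs and 0.01 with quantile normalization. ERV2 had 0.220, 0.226, 0.369 and 0.324 in upf1 and 0.424 and 0.409 in upf1 CHX, a log2 fold change of 0.55 (SE 0.18, limma adjusted p = 0.0106). The treated libraries of both genes were above all untreated upf1 libraries, yet both changes were below the median of all tested mRNAs (0.86), and that of ERV2 was −0.37 when scaled to the mRNAs and −0.45 with quantile normalization. Without upf1 CHX replicate 1, ERV2 was no longer called (log2 fold change 0.52, limma adjusted p = 0.0696). Within replicates 1 and 2 alone ERV2 was called, with a larger log2 fold change (0.84). In WT the log2 fold changes were 1.13 for VMA13 and 1.24 for ERV2.

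The density of XUT0250 relative to VMA13, its upstream neighbour on the same strand, crossed from below to above that of the gene. It was 15.2% to 25.5% of the VMA13 density in WT and 12.2% to 18.8% in upf1. In WT CHX it was 222% in both libraries, and in upf1 CHX it was 255% and 268%. The ratio is taken within a library, so scaling does not enter it.

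XUT0080 was almost absent before treatment. It held 1, 1, 0 and 2 reads in the WT libraries and 5, 3, 3 and 0 in the upf1 libraries, against 99 and 80 in WT CHX and 78 and 119 in upf1 CHX. In density, upf1 had 0.0124, 0.00692, 0.0135 and 0, and upf1 CHX had 0.266 and 0.328. No treated library came near an untreated one. Pooled over libraries, the rise was 33.9-fold in upf1 (95% interval 18.5 to 69.1, from 197 against 11 reads). This exact interval covers counting error only. In WT the pooled rise was 112-fold, from 179 against 4 reads, without an interval because that comparison is taken as the choosing one. The log2 fold change in upf1 was 3.51 (SE 0.21), and it depends on the pseudocount because the untreated level is so low. It was 1.87 with a pseudocount of 0.1 and 5.10 with voom on the recovered reads. Mean densities were 0.0039 in WT, 0.0082 in upf1 and 0.0061 in dcr1 upf1, all under the filter of 0.02 for testing. XUT0080 passed that filter only through the treated libraries in which it is high, so no p-value is given. In density XUT0080 went from rank 804 of 965 XUTs in WT to rank 53 in WT CHX, and from rank 889 in upf1 to rank 123 in upf1 CHX.

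Next to XUT0080 on the same strand lies SUT014 (chromosome 1, 861773 to 861991, 219 nt), which begins 164 bases further on. It ranked 6 in the list that chose XUT0080, and its place beside it was noticed after its values were seen. SUT014 had densities of 0.0262, 0.0153, 0.0298 and 0.0218 in upf1 and of 0.258 and 0.317 in upf1 CHX. Its log2 fold change in upf1 was 2.83 (SE 0.20). No p-value is given, because SUT014 was picked after its values were seen. Its untreated means were also near the filter of 0.02 for testing (0.014 in WT, 0.023 in upf1 and 0.023 in dcr1 upf1). After treatment the densities of both transcripts were close, with XUT0080 at 126% and 129% of SUT014 in WT CHX and at 103% in both upf1 CHX libraries. Before treatment both rest on a few reads.

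The protein-coding genes on either side of XUT0080 also rose, to a smaller extent. NCAS_0A04270, a gene with no symbol in the RefSeq table, starts 446 bases away and runs in the opposite direction. Its densities were 3.31, 3.36, 4.09 and 4.53 in upf1 and 14.6 and 13.0 in upf1 CHX, a log2 fold change of 1.86 (SE 0.14, limma adjusted p = 2.65e-08). APL2, which encodes the β-adaptin of the AP-1 clathrin adaptor, lies 1003 bases downstream of XUT0080 and rose by 1.14 (SE 0.14, limma adjusted p = 2.64e-06), from 0.556 to 0.678 in upf1 to 1.44 and 1.25 in upf1 CHX. Both stayed above 0 when scaled to the mRNAs, at 0.88 and 0.19. In WT their log2 fold changes were 2.53 and 1.55. XUT0080 remained a minor transcript beside NCAS_0A04270: its density was at most 0.373% of that gene's in untreated WT and upf1 libraries and 1.82% to 3.36% in treated ones.

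CUT0750 fell while USE1, the gene it lies within on the opposite strand, rose. CUT0750 had densities of 0.254, 0.211, 0.181 and 0.240 in upf1, from 110, 98, 43 and 47 reads, and of 0.0796 and 0.116 in upf1 CHX, from 25 and 45 reads. Both treated libraries were below all 4 untreated ones. The log2 fold change was −1.04 (SE 0.20, limma adjusted p = 0.00015), and it was −1.83 when scaled to the mRNAs. Pooled over libraries, CUT0750 was 2.25-fold lower in upf1 CHX than in upf1 (95% interval 1.73 to 2.96, counting error only). In WT it had 0.149, 0.113, 0.0774 and 0.124, and 0.0399 and 0.0384 after cycloheximide, from 9 and 8 reads.

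USE1, an ER SNARE that acts in transport from the Golgi to the ER in S. cerevisiae, had densities of 0.161, 0.197, 0.309 and 0.274 in upf1 and of 0.860 and 0.814 in upf1 CHX. Every treated library was above every untreated one. The log2 fold change was 1.78 (SE 0.19, limma adjusted p = 4.56e-07), above the mRNA median of 0.86, and it was 0.85 when scaled to the mRNAs. In WT it was 1.87. The libraries were made with a stranded kit, and no source used here says how strand entered the counting.

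Relative to USE1 in the same library, CUT0750 was far lower after cycloheximide. It stood at 34.0% to 73.0% of the USE1 density in WT, at 58.3% to 157% in upf1 and at 112% and 142% in dcr1 upf1. It was thus already below USE1 in all 4 WT libraries and in 2 of 4 upf1 libraries before treatment. After cycloheximide it stood at 4.05% and 4.83% in WT CHX and at 9.25% and 14.2% in upf1 CHX. Treated and untreated libraries did not overlap in either genotype. CUT0750 went from rank 22 of 1279 CUTs in WT to rank 758 in WT CHX, and from rank 48 in upf1 to rank 336 in upf1 CHX.

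The genes beyond USE1 rose by about the mRNA median. URA1 encodes dihydroorotate dehydrogenase of pyrimidine synthesis and lies 372 bases from CUT0750 on the opposite strand. Its densities were 2.85, 3.23, 2.01 and 1.97 in upf1 and 4.13 and 4.08 in upf1 CHX, a log2 fold change of 0.73 (SE 0.22, limma adjusted p = 0.00664), against −0.23 when scaled to the mRNAs and 0.10 with quantile normalization. NCAS_0D03500, which has no symbol, lies 1026 bases downstream on the strand of CUT0750 and changed by 0.81 (SE 0.21, limma adjusted p = 0.0025), against −0.072 when scaled to the mRNAs and −0.15 with quantile normalization. Neither direction therefore holds under every scaling.

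XUT0165 and CUT0214 were among the most abundant of their classes and lower in every treated library. XUT0165 had densities of 1.06, 1.12, 0.671 and 0.488 in upf1, from 602, 683, 209 and 125 reads, and of 0.178 and 0.212 in upf1 CHX, from 73 and 108 reads. Both treated libraries were below all untreated ones. The log2 fold change was −1.92 (SE 0.48, limma adjusted p = 0.00361) for XUT0165 and −1.76 (SE 0.46, limma adjusted p = 0.0048) for CUT0214. Pooled over libraries, XUT0165 was 4.72-fold lower in upf1 CHX than in upf1 (95% interval 4.05 to 5.54). This interval covers counting error only and leaves out the wide spread between the untreated libraries. In WT it had 1.24, 1.15, 0.375 and 0.511, and 0.244 and 0.253 after cycloheximide. CUT0214 followed from the same reads, with 0.500, 0.527, 0.318 and 0.228 in upf1 and 0.0854 and 0.108 in upf1 CHX.

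Untreated libraries of this locus fell into a high and a low pair in both genotypes. Replicates 1 and 2 of WT averaged 1.19 for XUT0165, and replicates 3 and 4 averaged 0.443. In upf1 the averages were 1.09 and 0.579. The treated groups and dcr1 upf1 have replicates 1 and 2 only, so the comparison was also made within those replicates. The fall was larger there, with a log2 fold change of −2.38 for XUT0165 and −2.20 for CUT0214 in upf1 and of −2.18 and −2.03 in WT. What distinguishes replicates 1 and 2 from 3 and 4 is not given in the labels, and its part in the result was not tested.

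XUT0165 went from rank 9 of 965 XUTs in WT to rank 114 in WT CHX, and from rank 19 in upf1 to rank 184 in upf1 CHX. CUT0214 held 1.20% ± 0.67 of all reads in CUTs in WT and 0.632% ± 0.28 in upf1 (SD, n = 4 each). After treatment its share was 0.121% ± 0.0043 in WT CHX and 0.0827% ± 0.019 in upf1 CHX (SD, n = 2 each). The shares in treated libraries were below every untreated share of the same genotype.

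RTT101, the cullin of an S. cerevisiae ubiquitin ligase that acts when replication forks stall, lies upstream on the same strand and moved the other way. It had densities of 0.113, 0.128, 0.152 and 0.133 in upf1 and of 0.496 and 0.451 in upf1 CHX. Its log2 fold change was 1.71 (SE 0.15, limma adjusted p = 8.72e-08), and 0.80 when scaled to the mRNAs. XUT0165 was 366% to 940% of the RTT101 density in upf1 and 35.8% and 47.0% in upf1 CHX. In WT the ratio went from 358% to 1256% down to 45.7% and 47.0%.

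CHM7, which takes part in ESCRT-dependent surveillance of the nuclear envelope in S. cerevisiae, converges on this locus from the opposite strand. It had densities of 0.0787, 0.103, 0.208 and 0.155 in upf1 and of 0.209 and 0.194 in upf1 CHX. The groups overlapped, since upf1 replicate 3 was above 1 treated library. The log2 fold change was 0.58 (SE 0.25, limma adjusted p = 0.0398), and it was −0.28 when scaled to the mRNAs and −0.36 with quantile normalization. The call was lost without upf1 replicate 1 (0.38, limma adjusted p = 0.0942), upf1 replicate 2 (0.48, 0.0899), upf1 CHX replicate 1 (0.53, 0.165) or upf1 CHX replicate 2 (0.63, 0.0956). Within replicates 1 and 2 alone CHM7 was called, with a larger log2 fold change (1.01), and its groups did not overlap. In WT it had 0.0637, 0.0508, 0.0628 and 0.0726. CHM7 was lower in upf1 replicates 1 and 2 than in 3 and 4, and so was every other neighbouring mRNA except URA1, which was higher. CUT0315 and XUT0250 were also lower in replicates 1 and 2, while XUT0165 and CUT0214 were higher. The log2 size factors over all mRNAs, relative to the deposited scaling, split the same way in upf1, at −0.30, −0.31, 0.02 and −0.076.

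EXP1, a gene for an ER export factor, lies 1334 bases beyond CUT0214 on the same strand. Its densities were 0.561, 0.589, 0.977 and 0.899 in upf1 and 1.11 and 1.04 in upf1 CHX. Within replicates 1 and 2 alone the log2 fold change was 0.88 and EXP1 was called. With all libraries it was 0.54 (SE 0.19, limma adjusted p = 0.0175), against −0.41 when scaled to the mRNAs and −0.34 with quantile normalization. The call was lost without upf1 CHX replicate 1 (0.49, limma adjusted p = 0.108) or upf1 CHX replicate 2 (0.59, limma adjusted p = 0.0519).

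**Figure D4:**
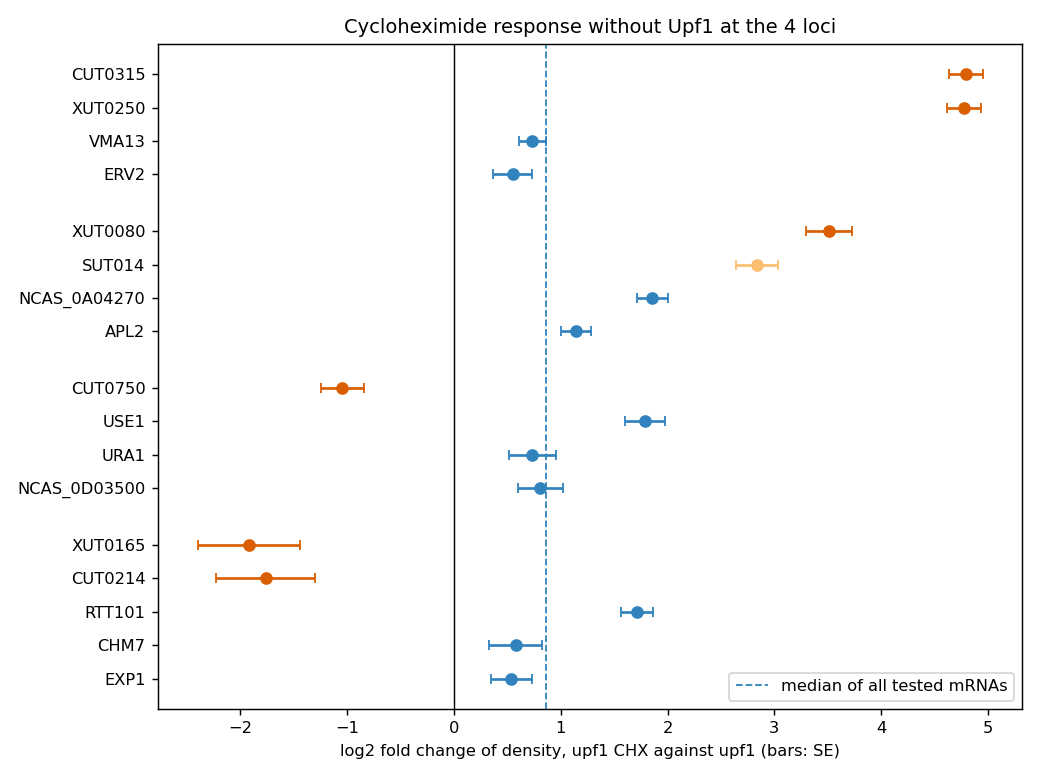
Log2 fold change of density in upf1 CHX against upf1 (x axis, bars are SE) for the 6 transcripts (orange), SUT014 (light orange) and the neighbouring mRNAs (blue), grouped by locus, with the mRNA median of 0.86 dashed. USE1 (1.78) and RTT101 (1.71) lie to the right beside falling transcripts, and VMA13, ERV2, URA1, NCAS_0D03500, CHM7 and EXP1, which lie at or below 0.81 here, are near or below 0 under other scalings.

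Counted together, limma called 10 of 10 neighbouring mRNAs higher in upf1 CHX against upf1. That number carries little information, because 90.8% of all tested mRNAs were called higher and 0.11% lower on the same scale. When scaled to the mRNAs 4 were higher and 2 lower, beside 1393 higher and 1885 lower of all 7518 tested features. With quantile normalization 4 were higher and 1 lower, beside 1378 and 1557 of all features. APL2, NCAS_0A04270, USE1 and RTT101 were the ones that stayed higher under both other scalings, APL2 at only 0.19 when scaled to the mRNAs. The 6 non-coding transcripts kept their directions and calls in upf1 CHX against upf1 under all 17 alternatives tried. Of these, the call of XUT0080 is description only.

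**Figure D5:**
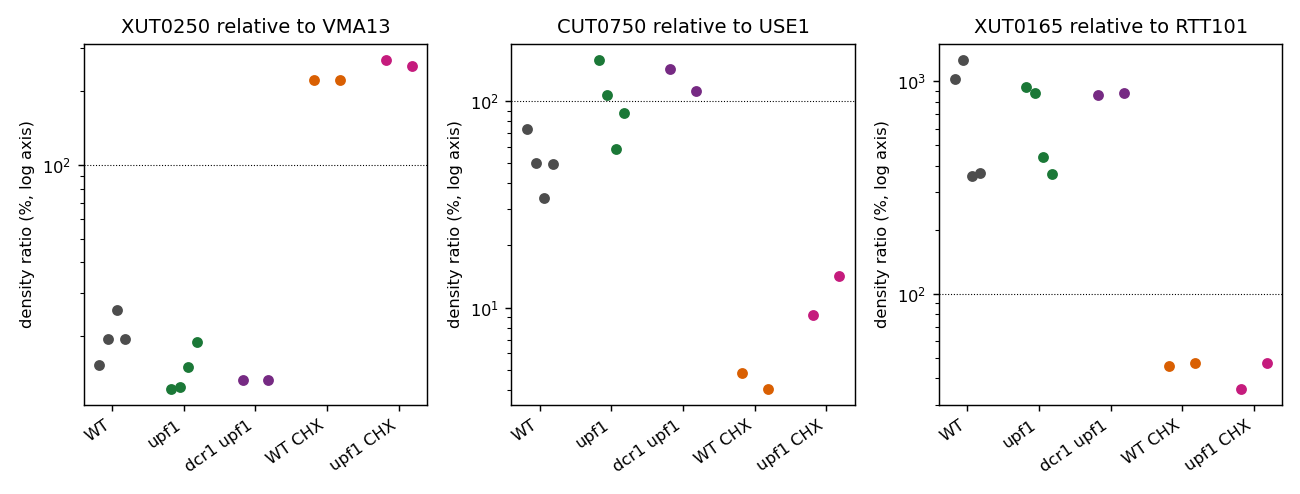
Density of XUT0250, CUT0750 and XUT0165 as a percentage of the density of VMA13, USE1 and RTT101 in the same library (y axis, log scale), by group (x axis), with 1 point per library and a dotted line at equal density. XUT0250 goes from at most 25.5% to at least 222% with cycloheximide, CUT0750 falls to at most 14.2%, and XUT0165 falls from at least 358% to at most 47.0%.

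None of the 6 passed the test when Dcr1 was lost in addition to Upf1. In dcr1 upf1 against upf1 limma on the densities called 0 of 6, beside 0.679% of tested CUTs and XUTs called higher and 0.432% lower, and none of the 6 had an unadjusted p under 0.05. Voom on the recovered reads also called 0 of 6. The members of each overlapping pair share their reads, so these 6 are not independent. XUT0080 held 4 and 3 reads in dcr1 upf1. Its upf1 mean density of 0.0082 lies under the pseudocount, so a fall of it could hardly have been called. CUT0315 had 0.163 and 0.171 in dcr1 upf1, a log2 fold change of −0.20 (SE 0.16, limma adjusted p = 0.475). XUT0080 changed by −0.08 (SE 0.21), CUT0750 by 0.02 (SE 0.20) and XUT0165 by 0.33 (SE 0.48). CUT0750 had 0.242 and 0.205, inside the range of upf1, and XUT0165 had 0.921 and 1.09. The dcr1 upf1 group holds replicates 1 and 2 only, and against upf1 replicates 1 and 2 alone the direction of XUT0165 turned to −0.12, as did that of CUT0214 (from 0.32 to −0.12). With the replicate number as a block they were −0.25 and −0.24. CUT0315 turned to 0.030 within replicates 1 and 2, and CUT0750 to −0.050. Limma on the densities also called 0 of 10 neighbouring mRNAs, none with an unadjusted p under 0.05, beside 0.239% of all tested mRNAs called higher and 0.11% lower. Voom called 0 of 10 as well. With 2 libraries in dcr1 upf1, changes of the size of these SEs were not detectable.

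Comparisons of the 6 transcripts between genotypes share libraries with treated or untreated wild-type cells, from which the choice is taken, and are given without a test. In upf1 against WT the log2 fold changes were −0.37 for CUT0315, −0.36 for XUT0250, 0.22 for XUT0080, 0.12 for XUT0165 and 0.12 for CUT0214, and the libraries of both groups overlapped for each. Between libraries of the same replicate number, CUT0315 and XUT0250 were lower in upf1 for 4 of 4 numbers, and XUT0165 and CUT0214 for 3 of 4 although their group difference was positive. CUT0750 did not overlap, with all 4 upf1 libraries (0.181 to 0.254) above all 4 WT libraries (0.0774 to 0.149) and a log2 fold change of 0.85. The median of tested CUTs and XUTs was 0.66 in the same comparison, where 63.7% of them were called higher and 0.123% lower, so CUT0750 lay above the median of its class and the other 5 below it.

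After cycloheximide the genotypes were compared in the same way, with 2 libraries each. CUT0315 and XUT0250 overlapped between upf1 CHX and WT CHX (log2 fold change −0.12 each). CUT0750 was higher in both upf1 CHX libraries (0.97), while XUT0080 (−0.54), XUT0165 (−0.33) and CUT0214 (−0.29) were lower in both. In this comparison 7.78% of tested CUTs and XUTs were called higher and 0.185% lower. The response to cycloheximide was 4.55 in WT and 4.79 in upf1 for CUT0315, 4.28 and 3.51 for XUT0080, −1.17 and −1.04 for CUT0750 and −1.47 and −1.92 for XUT0165, and these pairs were not tested against each other.

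The neighbouring mRNAs did not enter the choice of transcripts and were tested in upf1 against WT, without pairing by replicate number. Limma called 4 of 10 higher and 0 lower, beside 36.2% of all tested mRNAs called higher and 0.661% lower. URA1 rose most, from 1.64, 1.42, 0.976 and 1.02 in WT to 2.85, 3.23, 2.01 and 1.97 in upf1, a log2 fold change of 0.98 (SE 0.18, limma adjusted p = 0.000337). CHM7 (0.85, SE 0.20, limma adjusted p = 0.00246), NCAS_0A04270 (0.62, SE 0.12, limma adjusted p = 0.000265) and ERV2 (0.58, SE 0.15, limma adjusted p = 0.00395) were the others, and for all 4 the upf1 libraries were above the WT libraries. With quantile normalization CHM7 (0.22) and ERV2 (0.07) were no longer called. In all 2 were then higher and 5 lower, beside 1575 higher and 2598 lower of all 7518 tested features. When scaled to the mRNAs 4 were higher and 3 lower, beside 2255 and 1764 of all features. Lower calls were thus common under both scalings. USE1 (0.01), RTT101 (0.19), VMA13 (0.05), APL2 (0.07), EXP1 (0.29) and NCAS_0D03500 (−0.15) did not pass the test, although EXP1 did without upf1 replicate 1 (0.42, limma adjusted p = 0.0356) and with the replicate number as a block (0.29, limma adjusted p = 0.0262). NCAS_0D03500 was called lower when scaled to the mRNAs (−0.45, limma adjusted p = 0.00661), with quantile normalization (−0.69, limma adjusted p = 0.000636) and within replicates 1 and 2 alone (−0.39, limma adjusted p = 0.017). VMA13 and APL2 were also called lower under both other scalings, and USE1 and RTT101 with quantile normalization.

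Some mRNAs followed the same course over the 14 libraries. Likeness was measured as the root mean square difference of log2 values after subtracting each feature's WT mean. Nearest to CUT0315 and XUT0250 were SPO24, AAT1 and PUT4, at 0.30, 0.33 and 0.38 from CUT0315, and nearest to XUT0080 were DIC1 (0.33), NCAS_0A10640 (0.33) and AAT1 (0.33). AAT1 encodes a mitochondrial aspartate aminotransferase, PUT4 a proline permease and DIC1 a mitochondrial dicarboxylate carrier in S. cerevisiae. SPO24 had a log2 fold change of 4.46 in WT CHX against WT and 4.16 in upf1 CHX against upf1, and DIC1 had 4.20 and 4.19, so mRNAs with rises of this size exist.

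The falling transcripts had no mRNA as close. Nearest to CUT0750 were NCAS_0I01680 (0.52), NCAS_0J00130 (0.58) and RGI1 (0.61), and nearest to XUT0165 were ATG41 (0.82), RGI1 (0.86) and ATP8 (0.90). ATG41, RGI1 and NCAS_0F04060 were nearest to CUT0214, at 0.76, 0.82 and 0.83. RGI1 is needed for energy metabolism under respiratory growth, ATG41 for autophagy, and ATP8 is a mitochondrially encoded subunit of ATP synthase. RGI1 had log2 fold changes of −0.22 in WT and −1.52 in upf1, ATG41 of −0.52 and −0.35, and ATP8 of −0.58 and −0.54. Likeness over 14 libraries from 5 groups rests mainly on the treated groups and shares their scaling.

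The genes for the decay machinery that defines these transcript classes were mostly higher after cycloheximide in upf1, as were 90.8% of all tested mRNAs. Of the nuclear exosome and its cofactors, 20 of 20 measured genes were called higher (median log2 fold change 1.20), among them RRP6 (1.37), the nuclear exonuclease, and AIR1 (1.72), a subunit of the TRAMP complex. Of decapping and 5′ decay, 8 of 8 were higher (median 0.75), including XRN1 (0.68) and the decapping enzyme DCP2 (1.23). Of the NMD genes other than NAM7, which is deleted in both groups, 3 of 5 were higher (median 0.63, the value of UPF3). The median of all tested mRNAs was 0.86. When scaled to the mRNAs 9 of 34 genes, NAM7 included, were higher and 7 lower, beside 1393 higher and 1885 lower of all 7518 tested features. In upf1 against WT, 1 of 20 exosome genes (RRP40), 2 of 8 decapping genes (LSM1 and DCP1) and 4 of 5 NMD genes other than NAM7 (HRR25, NMD4, EBS1 and UPF3) were called higher, beside 36.2% of all tested mRNAs. The deleted NAM7 was the only one called lower, beside 0.661% of mRNAs.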

How the data were processed

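For each of 14 libraries of strand-specific total RNA the authors deposited a read density per feature, a signal in scaled reads per nucleotide. The submitters' processing notes list, without saying what each did, DESeq2, featureCounts 2.0.0, HISAT2 2.2.0 and Trim Galore. The genome build was not given in the sources used here. Multiplied by feature length, 100% of the deposited values in every library equalled a whole number of a library's smallest unit, with a tolerance of 0.001 reads, which gave the read numbers. Size factors over the snoRNAs lay within 0.0315 (log2) of those steps, and those over the mRNAs within 0.897, so the scaling set is inferred from the values. Of 8602 lines 259 repeat an earlier feature and were left out. Gene symbols came from the RefSeq table (assembly ASM23734v1), in which 5588 of 5599 mRNAs were found.

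Sample titles gave the groups. Limma 3.58.1 (R 4.3.3, statmod 1.5.0) was fitted to log2(density + 0.02), with 5 group means over all 14 libraries and a robust eBayes step with a trend, 2-sided. Features with a mean density of at least 0.02 were tested, which left 7518, and a call required an adjusted p (Benjamini-Hochberg) under 0.05. The pseudocount understates changes of low features. Counting intervals are exact at 95% and cover counting error only, not the spread between libraries. The procedure was tested on simulated data. The 6 transcripts and all lists were chosen with earlier results of these data known. The features named are the 6 transcripts, the mRNAs that overlap them or are nearest on each side, the 3 mRNAs with the smallest root mean square difference to each, the features ranked 4 to 6 in each direction by the choosing comparison, NAM7, and decay genes that were called. Outside that rule, SUT037 and CUT1203 are named for their calls, and 6 mating-type genes as a check of the strains.

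Alternatives were other pseudocounts, other filters, mRNA-ratio scaling, quantile normalization, the compared groups alone and replicates 1 and 2 alone. Further ones were the replicate block, eBayes without trend or robust step, voom on the recovered reads and leaving out each library. Deviations from the group means correlated at 0.365, 0.432, 0.209 and 0.354 between WT and upf1 libraries of the same number. The main fit left this pairing out, so its SEs and p-values in upf1 against WT are unpaired. The replicate block is the alternative that took it in. Between upf1 and upf1 CHX the correlations were 0.075 and −0.030.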

Additional observations from a re-analysis of the deposited data

How the results depend on the processing

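The 3 higher and 3 lower calls of the 6 transcripts in upf1 CHX against upf1, and the absence of calls in dcr1 upf1 against upf1, were the same under every alternative run, including leaving out each library (3 and 3, and 0 and 0) and the replicate block (XUT0165 −2.50, CUT0750 −1.16). Among these calls, that of XUT0080 in upf1 CHX against upf1 is description only. What scaling changes is the background. The numbers of features called higher and lower were 6342 and 18 in upf1 CHX against upf1, 25 and 13 in dcr1 upf1 against upf1, 3042 and 44 in upf1 against WT, and 7075 and 11 in WT CHX against WT. With mRNA-ratio scaling they were 1393 and 1885 in upf1 CHX, 2689 and 1517 in WT CHX, 42 higher in dcr1 upf1 and 1764 lower in upf1. With quantile normalization they were 1378 and 1557, 1533 and 1691, 40 higher in dcr1 upf1, and 1575 and 2598 in upf1. Within replicates 1 and 2 alone 44 were lower in upf1 CHX, 55 higher and 34 lower in dcr1 upf1, 327 lower in upf1 and 25 lower in WT CHX. With the replicate block 31 were lower in upf1 CHX, 91 in upf1 and 19 in WT CHX, and the block added the call of EXP1 in upf1 and changed no other call of a named neighbour. With the compared groups alone 24 were lower in upf1, and 7 were lower in WT CHX at a mean density of at least 0.1.

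Leaving out 1 library gave 5106 to 6502 higher and 11 (without upf1 CHX replicate 2) to 19 lower in upf1 CHX, 18 to 28 and 8 (without dcr1 upf1 replicate 2) to 13 in dcr1 upf1, 2677 to 3106 and 30 to 73 (without upf1 replicate 3) in upf1, and 6804 to 7087 and 10 to 17 (without WT replicate 2) in WT CHX. It gave 7 to 10 neighbouring mRNAs higher and 0 lower in upf1 CHX, 0 in dcr1 upf1, 4 to 5 higher and 0 lower in upf1, and 29 to 32 decay genes higher and 0 lower in upf1 CHX, where 31 were higher with all libraries.

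Neighbouring mRNAs called in upf1 CHX numbered 4 higher and 2 lower with mRNA-ratio scaling and 4 and 1 with quantile normalization; in upf1 against WT 3 were lower with mRNA-ratio scaling, 2 higher and 5 lower with quantile normalization, and 1 lower within replicates 1 and 2 alone. Decay genes numbered 9 higher and 7 lower, and 12 and 5, under these scalings. All these counts are to be read beside the numbers over all features under the same scaling, given above. For the neighbours, log2 fold changes of opposite sign in upf1 CHX were −0.23 (VMA13), −0.37 (ERV2), −0.072 (NCAS_0D03500), −0.23 (URA1), −0.28 (CHM7) and −0.41 (EXP1) with mRNA-ratio scaling, and −0.45 (ERV2), −0.15 (NCAS_0D03500), −0.36 (CHM7) and −0.34 (EXP1) with quantile normalization. In upf1 against WT they were −0.27 (VMA13) and −0.24 (APL2) with mRNA-ratio scaling, and −0.19 (VMA13), −0.28 (APL2), −0.49 (USE1) and −0.38 (RTT101) with quantile normalization. In WT CHX against WT they were −0.21 (VMA13), −0.033 (ERV2), −0.44 (URA1) and −0.73 (EXP1) with mRNA-ratio scaling, and −0.30 (ERV2), −0.25 (NCAS_0D03500), −0.17 (URA1), −0.010 (CHM7) and −0.73 (EXP1) with quantile normalization. Both scalings centre the libraries on other features than the snoRNAs, and the cause of the remaining differences was not tested. With the compared groups alone CHM7 and EXP1 were not called in upf1 CHX (limma adjusted p = 0.105 and 0.0526). Depth limits XUT0080 before treatment and CUT0750 in WT CHX, each read under 20 times per library.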
